A study of Mus musculus with 8 samples.

Results

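The genes described here encode the protein subunits of oxidative phosphorylation, the respiratory chain and ATP synthase of mitochondria. They were chosen by symbol: mt-Nd, mt-Co, mt-Atp and mt-Cytb genes of the mitochondrial genome, and nuclear genes named Nduf (a, b, c, s or v with a number), Sdha to Sdhd, Uqcr, Cox4 to Cox8 with a letter a to c, and Atp5. Of 54232 genes listed, 101 symbols matched and 93 genes held at least 20 unique molecular identifiers (UMIs, counted RNA molecules) over all libraries. Of these 93 members, 13 are mitochondrial-encoded and 80 nuclear-encoded. The 8 matches left out are 7 pseudogenes, marked by their symbols, and Cox8c, listed at 0 UMIs.

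Nuclei were sequenced from a small block of forebrain tissue beside the lesion site, taken at an age of 10 weeks from Swiss Webster mice, all male. The 8 libraries came from mice with control, BCAS, TBI (traumatic brain injury) or BCAS+TBI surgery, 2 libraries per group. BCAS is given only as an abbreviation, while the study's title names cerebral hypoperfusion, and the time between surgery and collection was not given in the sources used here. The labels call the libraries biological replicates without naming animals, so the p-values measure the spread between these libraries.

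Complex I (NADH dehydrogenase) and complex II (succinate dehydrogenase) pass electrons to ubiquinone, complex III (cytochrome bc1) hands them to cytochrome c, and complex IV (cytochrome c oxidase) passes them to oxygen. The proton gradient built by complexes I, III and IV drives ATP synthase. All mitochondrial-encoded subunits are transcribed and translated inside mitochondria, which lie outside the nucleus, whereas the other subunits are transcribed in the nucleus and imported as proteins. Neurons depend on this pathway to restore ion gradients after firing. By the symbols, complex I held 7 mitochondrial-encoded and 36 nuclear-encoded members, complex II held 4 nuclear-encoded members, complex III held 1 and 8, complex IV held 3 and 15, and ATP synthase held 2 and 17. Ndufa4 was counted with complex I by its symbol although its protein is known as a part of complex IV, and Atp5s, a coupling factor, was counted with ATP synthase by its symbol alone.

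The libraries held 6191 to 7882 barcodes each and 53390 in all, every one with at least 500 UMIs, where the labels give a capture target of 3000 per sample. By total UMIs they fell into 4 shallower libraries (control 1, BCAS 1, TBI 1 and BCAS+TBI 2, 28118725 to 33363564 UMIs) and 4 deeper ones (control 2, BCAS 2, TBI 2 and BCAS+TBI 1, 42651388 to 56135192 UMIs), so each group had 1 library of each kind. Median UMIs per barcode were 3275.5 to 3829.5 in the shallower and 5462 to 6409 in the deeper libraries. Any pair of libraries shared 5 to 20 barcode sequences. Cytosolic ribosomal protein genes summed to 4880 to 8607 counts per 1000000 UMIs (CPM) in the shallower and 1832 to 2395 CPM in the deeper libraries, and 8 nuclear-retained RNAs such as Malat1 to 72589 to 86492 and 40305 to 46681 CPM. Haemoglobin genes, markers of red blood cells, overlapped between the kinds (146 to 1564 and 114 to 256 CPM). What part these differences in depth and RNA make-up had in the results below was not tested.

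Of the 654683 UMIs of mitochondrial-encoded members, mt-Cytb, the mitochondrial subunit of complex III, took 25.2%, and the complex I subunits mt-Nd2, mt-Nd1 and mt-Nd4 took 21.01%, 17.3% and 14.7%. mt-Nd6, the 1 member read from the other strand of the mitochondrial genome, took 0.471%. The kit captures RNA by its runs of A, so the longest A run of each of these transcripts is shown in capitals in a 30-base window of GENCODE M21 (mouse build GRCm38), written 5′ to 3′ on the transcript's own strand. These windows lie in the mitochondrial genome at chrM:14147-14176 for mt-Cytb, chrM:4041-4070 for mt-Nd2, chrM:3608-3637 for mt-Nd1, chrM:10216-10245 for mt-Nd4 and, on the minus strand, chrM:13992-14021 for mt-Nd6.
mt-Cytb: gacaaacatacgAAAAAcacacccattatt
mt-Nd2: tactaatcaacAAAAAAAAcccacgatcaa
mt-Nd1: acatcttctatgAAAAAActttctacccct
mt-Nd4: tatcaagccctAAAAAAAcctgaacaaacg
mt-Nd6: ttgggttagcattAAAgccttcacctattt
The longest run was 8 bases in mt-Nd2, 7 in mt-Nd4, 6 in mt-Nd1, 5 in mt-Cytb and 3 in mt-Nd6. Over the 13 genes, those with a run of 6 or more (mt-Nd2, mt-Nd4, mt-Co1, mt-Nd5 and mt-Nd1) were all among the 7 with most UMIs, while mt-Cytb held the most with a run of 5. The transcripts with a run of 6 or more were also long, 957 to 1824 bases, as was mt-Cytb with 1144. Those of the remaining genes had 204 to 784 bases. Run length and transcript length thus cannot be told apart here, and no test was made of either relation. On the genome mt-Atp6 overlaps mt-Atp8 at one end and mt-Co3 at the other, and mt-Nd4l overlaps mt-Nd4. Reads lying wholly in an overlap cannot be assigned to a single gene by position, and how they affected these counts was not tested.

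For the nuclear-encoded members, promoters (RefSeq on GRCm38.p6) were found for 66 of 79 symbols, and the 250 bases before the start were searched on both strands for 3 motifs of factors known for mitochondrial genes. The motif of NRF1, a factor known to act on many respiratory genes, is the palindrome shown in capitals in the windows that follow, and it occurred in 4 of 66 promoters (6.06%) against 237 of 27025 promoters of all genes (0.877%). The ETS motif CCGGAAGT occurred in 3 of 66 (4.55%) against 3.23% of all promoters. The YY1 motif AAGATGGCG occurred in 1 of 66 (1.52%, Atp5j) against 0.710% of all promoters. None of these motifs contains another, and a match is a description of these letters alone. The 60-base windows around the NRF1 matches (capitals) are shown for these 4 genes because their levels are given below, at chr15:102671055-102671114 (minus strand, Atp5g2), chr5:108434415-108434474 (minus, Atp5k), chr5:115349086-115349145 (minus, Cox6a1) and chr17:56717677-56717736 (plus, Ndufa11).
Atp5g2: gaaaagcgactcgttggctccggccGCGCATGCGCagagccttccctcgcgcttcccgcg
Atp5k: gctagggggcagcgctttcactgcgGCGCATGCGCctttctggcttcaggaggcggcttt
Cox6a1: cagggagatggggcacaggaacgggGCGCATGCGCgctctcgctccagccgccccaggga
Ndufa11: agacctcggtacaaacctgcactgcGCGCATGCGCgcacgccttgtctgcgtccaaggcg
Among these genes Atp5k (log2 fold change -1.30), Ndufa11 (-1.15) and Cox6a1 (-0.99) were lower in the deeper libraries by the test described next, and Atp5g2 (-0.15) did not pass it.

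The members' levels differed between the shallower and deeper libraries. In sums over whole libraries, fewer cells of a type and less RNA per cell cannot be told apart. Nuclear-encoded members summed to 3703 CPM in control 1 and 2059 in control 2, to 3681 in BCAS 1 and 1919 in BCAS 2, to 4093 in TBI 1 and 2035 in TBI 2, and to 1939 in BCAS+TBI 1 and 4783 in BCAS+TBI 2. All 4 shallower libraries lay above all 4 deeper ones, with a ratio of means of 2.04. The share of UMIs in mitochondrial-encoded members was 0.464% in BCAS+TBI 2, 0.302% in BCAS 1, 0.280% in TBI 1 and 0.245% in control 1, and in the deeper libraries 0.170% in control 2, 0.137% in BCAS 2, 0.113% in BCAS+TBI 1 and 0.0903% in TBI 2. These also split without overlap, with a ratio of 2.53. In counts per barcode the nuclear-encoded members averaged 16.8 to 21.9 UMIs in the shallower and 13.1 to 16.1 in the deeper libraries (means 19.5 and 14.3), so the order held without dividing by depth. The mitochondrial-encoded members averaged 11.1 to 21.2 and 5.80 to 13.3 UMIs per barcode, and these ranges overlapped.

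**Figure D1:**
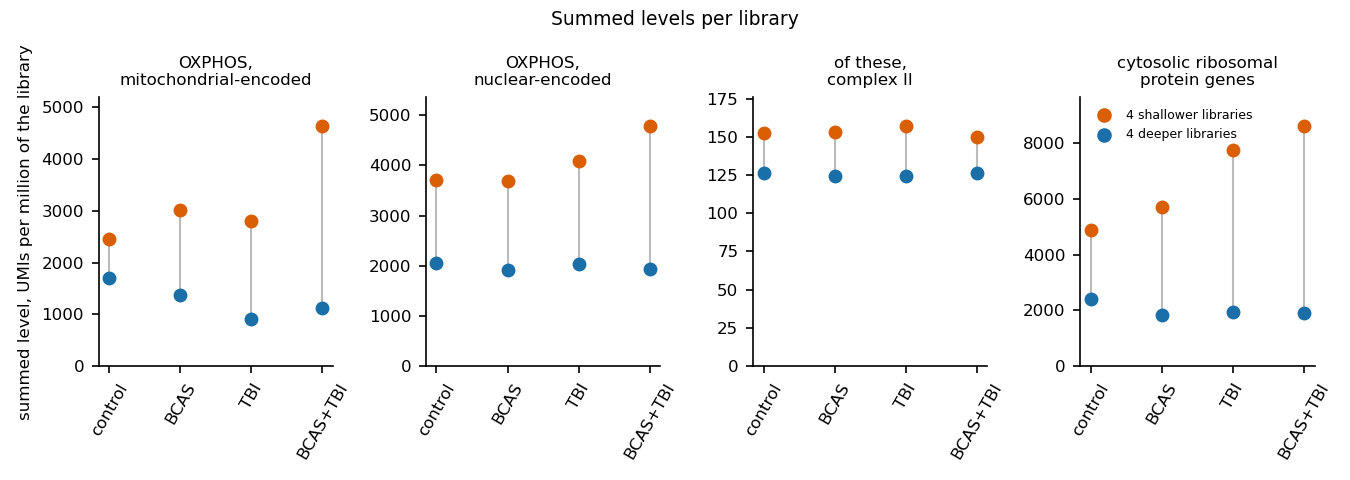
Summed levels in CPM of the library (vertical axis) for each of the 8 libraries, by group and by shallower or deeper library. The 4 shallower libraries lie between 3681 and 4783 for the nuclear-encoded members, above the 4 deeper ones at 1919 to 2059.

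The difference was unequal between complexes. Nuclear-encoded complex II summed to 150 to 157 CPM in the shallower and 124 to 126 CPM in the deeper libraries, a ratio of 1.22. Complex I held 1394 to 1792 against 776 to 818 CPM (ratio 1.93), complex III 287 to 402 against 152 to 170 (2.10), ATP synthase 966 to 1233 against 490 to 518 (2.10), and complex IV 867 to 1206 against 370 to 431 (2.43). The mitochondrial-encoded subunits had ratios of 2.49 for complex I, 2.55 for complex III, 2.58 for complex IV and 2.68 for ATP synthase. The ratios between complexes were not tested against each other.

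Gene by gene, all 13 mitochondrial-encoded and 77 of 80 nuclear-encoded members had higher CPM in every shallower library than in any deeper one, against a background of 38% of 28042 genes. Cox7b2 had higher CPM in every deeper library (background 14.5%), and Sdhc and Cox8b overlapped. These CPM values carry a shift that touches all genes: the median log2 difference over all genes, deeper over shallower, was -0.28 on unscaled CPM and -0.06 after TMM scaling, and that of the members -1.26 and -1.05. After TMM scaling and with group in the model, edgeR's quasi-likelihood test with Benjamini-Hochberg adjustment over 24569 genes called 80 of 92 members lower and 1 higher in the deeper libraries, where 31.4% of all genes were lower and 27.7% higher. Leaving out 1 library at a time gave 77 to 82 called members.

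All 13 mitochondrial-encoded members were lower in the deeper libraries, with a median of -1.15. Among complex I subunits mt-Nd4l was furthest down at -1.41, followed by mt-Nd3 (-1.19), mt-Nd6 (-1.18), mt-Nd2 (-1.15), mt-Nd4 (-1.08), mt-Nd1 (-1.07) and mt-Nd5 (-1.001). The complex IV subunits mt-Co3, mt-Co2 and mt-Co1 stood at -1.36, -1.17 and -1.04, and the ATP synthase subunits mt-Atp6 and mt-Atp8 at -1.24 and -1.08. mt-Cytb stood at 611 and 411 CPM in control 1 and 2, at 750 and 340 in BCAS, at 707 and 239 in TBI, and at 287 and 1192 in BCAS+TBI. Every shallower library lay above every deeper one, and the log2 fold change was -1.12 (SE 0.21, adjusted p = 0.00291 by edgeR). mt-Nd1 followed at 421 and 301, 543 and 245, 454 and 156, and 200.3 and 786 CPM in the same order of groups and replicates. Its highest value was again in BCAS+TBI 2.

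Among the 36 nuclear-encoded subunits of complex I, 32 were lower. Ndufb9, an accessory subunit of the membrane arm, stood at 49.6 and 19.5 CPM in control 1 and 2, 55.9 and 16.3 in BCAS, 59.3 and 16.8 in TBI, and 16.8 and 77.0 in BCAS+TBI. It fell by 1.57 on the log2 scale (SE 0.13, adjusted p = 0.000181 by edgeR). Ndufa1, an X-linked subunit needed for assembly, stood at 17.5 and 6.68, 17.8 and 5.38, 24.4 and 6.08, and 5.58 and 26.5 CPM, and its log2 fold change was -1.62. In both genes the shallower libraries held over 2 times the level of the deeper library of their own group. Ndufc2 (-1.21) and Ndufb10 (-1.24) were lower as well, and so was Ndufa4 (-1.52). The 4 subunits that did not pass the test were Ndufs1 (0.10), the largest iron-sulfur subunit, Ndufs4 (0.10), Ndufv2 (-0.01) and Ndufa9 (-0.17). Ndufs1 lay at 67.9 to 71.5 CPM in the deeper and 72.6 to 78.1 in the shallower libraries, a gap no larger than the shift of all genes.

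Complex II is the 1 complex with no mitochondrial-encoded subunit, and it also belongs to the tricarboxylic acid cycle. Sdhb, its iron-sulfur subunit (-0.23, adjusted p = 0.0226 by edgeR), and Sdhd, a membrane anchor (-0.62), were lower. Sdha, the flavoprotein that oxidizes succinate, did not pass (0.03, SE 0.05), with 78.6 and 68.0 CPM in control 1 and 2, 76.5 and 67.9 in BCAS, 77.7 and 65.7 in TBI, and 68.5 and 74.0 in BCAS+TBI. Sdhc, the other anchor, did not pass either (0.03, SE 0.08), and its libraries overlapped.

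In complex III, 6 of 8 nuclear-encoded subunits were lower, among them Uqcrq (-1.42), a small subunit that stood at 42.7 to 64.3 CPM in the shallower and 13.8 to 18.4 in the deeper libraries. The core proteins Uqcrc1 (-0.24) and Uqcrc2 (0.05) did not pass. In ATP synthase 14 of 17 were lower, with Atp5e, the epsilon subunit of the catalytic head, furthest down at -1.63 (SE 0.23). Atp5c1 (-0.03), the central stalk subunit, and Atp5s (-0.08) did not pass. Atp5g1, Atp5g2 and Atp5g3 encode the same mature c subunit of the rotor ring, and they differed: Atp5g1 (-1.45) and Atp5g3 (-1.20) were lower and Atp5g2 (-0.15, adjusted p = 0.151 by edgeR) did not pass. Atp5g1 stood at 61.0 to 79.7 CPM in the shallower and 19.3 to 22.0 in the deeper libraries, and Atp5g2 at 17.2 to 21.8 and 14.0 to 16.2. The difference between these genes was not tested. The files list the symbol Atp5o for 2 Ensembl IDs, and 1 of them (ENSMUSG00000116933) spans 242585 bp on chromosome 16 across Donson and Cryzl1 and opposite Itsn1, so its counts (-1.13) are uncertain.

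In complex IV, 13 of 14 nuclear-encoded subunits tested were lower and 1 was higher. Cox6a1 (-0.99) and its heart and muscle form Cox6a2 (edgeR adjusted p = 0.0113), Cox6b1 (-1.13) and its testis form Cox6b2 (-0.81), and Cox7a1 (-1.21), Cox7a2 (-1.19) and Cox7a2l (-0.82), the last a factor of supercomplex assembly, were all lower. Cox6a2 and Cox7a1 are muscle forms, and each held no more than 1.53 CPM in any library. Cox7c was lower (-1.16). Cox8a was lower (-1.46), and its muscle form Cox8b, with 42 UMIs in all, was too rare to test. Cox7b, at 224 to 279 CPM in the shallower and 105 to 126 in the deeper libraries, was lower (-0.87). Cox7b2 went the other way: 12.02 and 14.1 CPM in control 1 and 2, 9.41 and 15.4 in BCAS, 10.5 and 14.6 in TBI, and 17.4 and 8.47 in BCAS+TBI, a log2 fold change of 0.83 (SE 0.13, adjusted p = 0.00142 by edgeR). Cox7b2 was thus highest in the deeper library of each group.

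Genes of the members' pathway outside the symbol pattern were read from lists. All 6 further subunits and carriers were lower in the deeper libraries (median -1.31), among them Cox4i1 (-1.72), the regulatory subunit of complex IV, Cycs (-1.19), cytochrome c itself, and Cyc1 (-0.65). Of 44 assembly factors 25 were lower and 7 higher (median -0.41), with Coa3 at -1.61, Cox11 at -0.77 and Ndufaf5 at 0.70. Of 13 genes of mitochondrial biogenesis and mtDNA expression 3 were lower and 6 higher (median 0.02), with the RNA-binding partners Lrpprc at 0.63 and Slirp at -0.78, and the coactivator Ppargc1b at 0.53. Of 18 genes of the tricarboxylic acid cycle 5 were lower and 7 higher (median -0.03), with Mdh2 at -0.45, Idh3b at -0.40 and Ogdh at 0.35. The median over all genes was -0.06.

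The members that did not pass were mostly long genes, a relation looked at after their values were seen. Of 26 nuclear-encoded members whose gene spans under 5 kb, 26 were lower (median -1.22), and of 27 members of 5 to 10 kb, 26 were lower (-0.87). From 10 to 20 kb 12 of 14 were lower (-0.75), from 20 to 50 kb 2 of 9 (-0.01), and over 50 kb 1 of 3, the uncertain Atp5o, while Cox7b2, which spans 105382 bp, was higher. Other protein-coding genes showed the same order: 66.7% were lower under 5 kb (median -0.78), 49.4% from 5 to 10 kb (-0.40), 35.5% from 10 to 20 kb (-0.19), 18.2% from 20 to 50 kb (0.06) and 6.07% over 50 kb (0.37). Across genes, Spearman's rho between span and log2 fold change was 0.686 over 79 members and 0.602 over 16181 other genes. Genes are not independent replicates, all values share the same 8 libraries, and no test was made. Ribosomal protein genes under 5 kb were lower in 66 of 67 cases, with a median of -1.51.

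**Figure D2:**
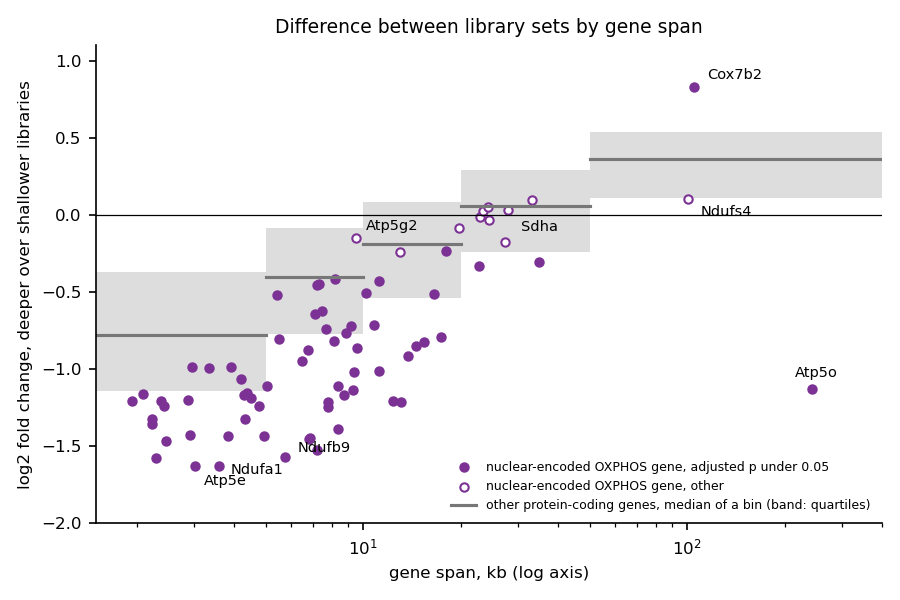
Log2 fold change, deeper over shallower libraries (vertical axis), against gene span in kb (log axis) for the nuclear-encoded members, with medians of other genes by span. Members under 5 kb have a median of -1.22, those of 20 to 50 kb lie near 0, and Cox7b2 stands at 0.83.

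Cell classes were assigned by marker genes that are no members, and they are called by the type their markers point to. Of the 53390 barcodes, 19562 (36.6%) had no class and 4191 held markers of 2 classes. The classes were excitatory neuron-like (10939), inhibitory neuron-like (5473), astrocyte-like (4183), oligodendrocyte-like (3126), endothelial-like (1918), oligodendrocyte precursor-like (872), striatal projection neuron-like (835), ependymal-like (817), microglia-like (697), fibroblast-like (172), mural-like (320) and choroid plexus-like (285). Of 66 markers 65 were highest in their own class. The exception was Ppp1r1b, a striatal marker at 115 CPM in the choroid plexus-like and 105 CPM in the striatal class. The same markers set the classes, so this count is no independent check of them. A gene outside the gate, looked at for each class, was highest in its own class. Camk2a differed little, with 707 CPM in the excitatory neuron-like and 535 CPM in the striatal class. Fibroblast-like barcodes, with as few as 13 in a library, were not tested.

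The split between shallower and deeper libraries was present within classes. Summed nuclear-encoded members did not overlap between the kinds in 11 of 12 classes, and mitochondrial-encoded members in 8 of 12. In 47 of 48 pairs of a class and a group the shallower library had the higher nuclear-encoded sum, and in 44 of 48 the higher mitochondrial-encoded sum. By edgeR's quasi-likelihood test, adjusted over 94786 class-gene pairs, 538 of 704 member pairs were lower in the deeper libraries, against 19.1% of all pairs, and 3 were higher, against 15.4% (34.5% in either direction). The 3 higher pairs were Cox7b2 in the excitatory neuron-like (0.73), inhibitory neuron-like (0.97) and astrocyte-like (0.72) classes. Leaving out 1 library gave 437 to 533 called pairs. The 10 nuclear-encoded pairs with the smallest p-values were all in inhibitory neuron-like barcodes: Cox8a (-1.37), Cox7b (-0.93), Cox5b (-1.42), Ndufb9 (-1.44), Ndufa13 (-1.29), Ndufa4 (-1.46), Atp5g1 (-1.38), Atp5k (-1.35), Uqcrq (-1.36) and the uncertain Atp5o (-1.04).

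Some members were lower in each class tested. The complex IV subunits Cox7c, Cox8a, Cox6c and Cox7b were lower in 11 of 11 classes. Members of other complexes, tested in fewer classes, were also lower in each, among them Ndufa13 (10 of 10), Ndufb9 (9 of 9), Atp5g1 (8 of 8) and Uqcrq (8 of 8). Ndufs1, Ndufs4 and Sdha were lower in 0 of 10 classes and Ndufv2 in 0 of 9. Atp5g2 and Sdhc were lower in 0 of 6 and Atp5s in 0 of 5. Cox6b2 was tested in only 2 classes, with fitted values of -0.92 and -0.39, and was called in 0. By class, nuclear-encoded members were lower in 63 of 77 cases in excitatory neuron-like, 63 of 76 in inhibitory neuron-like, 43 of 69 in striatal, 57 of 77 in astrocyte-like, 56 of 75 in oligodendrocyte-like, 29 of 41 in oligodendrocyte precursor-like, 65 of 74 in endothelial-like, 13 of 23 in microglia-like, 16 of 18 in mural-like, 22 of 36 in ependymal-like and 7 of 19 in choroid plexus-like barcodes. The backgrounds of lower pairs in these classes were, in the same order, 28.3%, 25.2%, 15.5%, 16.7%, 14.8%, 12.6%, 17.1%, 8.82%, 16.2%, 11.5% and 7.55%.

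The oligodendrocyte-like class stood apart for mitochondrial-encoded members. Their sum was 2926 and 7548 CPM in control 1 and 2, 4772 and 2362 in BCAS, 3488 and 1509 in TBI, and 2502 and 6072 in BCAS+TBI. The sum of control 2 was the highest of all 8 although it is a deeper library. Its median barcode was not: it held 0.185% of UMIs in these members, beside 0.183% in control 1 and 0.419% in BCAS+TBI 2. The 95th percentile of its barcodes was 7.33%, against 0.561% (TBI 2) to 2.00% (BCAS 1) in the other libraries. In this class 0 of 12 mitochondrial-encoded members were called (median -0.43, smallest adjusted p = 0.0594 by edgeR, 0.238 by DESeq2). Without control 1 or without control 2, either of which takes the control pair out of the contrast, 11 of 12 were called, with medians of -1.09 and -1.10. With barcodes of at most 5% of UMIs in all mitochondrial genes, ribosomal RNA included, 9 of 11 were called. That setting removes 4895 of all barcodes (9.17%) by a share that contains the members tested. With no filter on low counts 8 of 13 were called. In the other classes mitochondrial-encoded members were lower in 13 of 13 cases in excitatory neuron-like, 12 of 12 in inhibitory neuron-like, 11 of 12 in astrocyte-like, 12 of 12 in endothelial-like and 11 of 11 in ependymal-like barcodes, and in 8 of 10 in microglia-like barcodes.

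Members also differed between classes. These levels are shares of a class's UMIs, and depth differed between classes. Median UMIs per barcode were 7568 in excitatory neuron-like, 1149.5 in endothelial-like and 980.5 in mural-like barcodes. Mean counts of members per barcode were not compared between classes, and their order may differ from that of the shares. No nuclear-encoded UMI was found in 0.0457% of excitatory neuron-like barcodes, against 2.45% of endothelial-like ones, although the endothelial-like share was higher. In ependymal-like barcodes, whose type bears motile cilia, the mitochondrial-encoded sum was the highest of the 12 classes in all 8 libraries: 20014 and 14784 CPM in control 1 and 2, 22852 and 13378 in BCAS, 23778 and 14052 in TBI, and 15998 and 25856 in BCAS+TBI. Excitatory neuron-like barcodes, at 589 to 3672 CPM, and choroid plexus-like barcodes, at 481 to 4737 CPM, were each lowest in 4 libraries. Between them lay the inhibitory neuron-like (967 to 5223 CPM) and striatal (778 to 4350.2) classes, whose ranges overlapped with both, then astrocyte-like (1291 to 5416), oligodendrocyte-like (1509 to 7548) and microglia-like barcodes (1921 to 9237). Oligodendrocyte precursor-like barcodes (1089 to 5240.4 CPM) ranked 8 to 11 of 12. Below the ependymal-like class lay mural-like (3235 to 12231 CPM), endothelial-like (5511 to 12202) and fibroblast-like (2317 to 13254) barcodes, whose ranges overlapped. These and the oligodendrocyte-like class each ranked second in at least 1 library. Free RNA of a library can reach barcodes of any class, and its part in these levels was not tested.

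The order for nuclear-encoded members was different. Endothelial-like barcodes were highest in 7 of 8 libraries, at 8991 and 5611 CPM in control 1 and 2, 12897 and 5405 in BCAS, 11686 and 5524 in TBI, and 5678 and 13667 in BCAS+TBI. Mural-like barcodes were highest in the other library. Excitatory neuron-like barcodes were lowest in 7 of 8 libraries, at 1591 to 4017 CPM, and the striatal class in 1. Ependymal-like barcodes, first for the mitochondrial-encoded sum, ranked 7 to 11 of 12 for the nuclear-encoded sum (1901 to 4345 CPM).

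**Figure D3:**
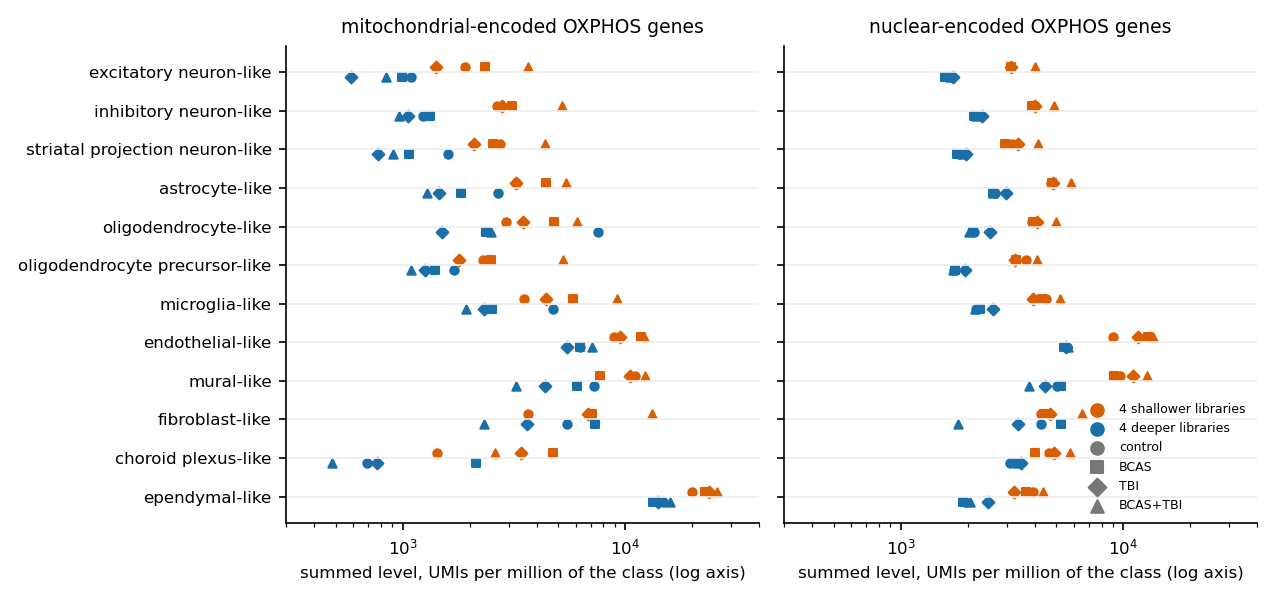
Summed levels in CPM of the class (log axis) for mitochondrial-encoded and nuclear-encoded members in 12 marker-gated classes, 1 point per library. Ependymal-like barcodes lead for mitochondrial-encoded members (13378 to 25856), and endothelial-like and mural-like barcodes for nuclear-encoded members.

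Each class was set against the mean of the other classes with library as a block (edgeR, adjusted over 142428 class-gene pairs). Of 979 member pairs 196 were higher and 320 lower, against backgrounds of 28.3% and 22.9%, and 51.2% of all pairs were called in either direction. In the ependymal-like class 12 of 12 mitochondrial-encoded members were higher (median 2.75, background 27.9%), with mt-Nd6 at 3.52, mt-Cytb at 3.43 and mt-Nd4 at 3.34. mt-Cytb ranged from 4101 to 8627 CPM there (median 5909), against 150 to 947 CPM in excitatory neuron-like barcodes, with no overlap between these classes. Of 77 nuclear-encoded members in the ependymal-like class 3 were higher and 4 lower (median -0.06, background 19.7% lower), with Cox6a1 at -0.76, Ndufa10 at -0.68 and Sdhb at -0.61.

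In the endothelial-like class 12 of 12 mitochondrial-encoded (median 1.45) and 69 of 77 nuclear-encoded members (median 1.54) were higher, against a background of 34.4%, and 3 were lower. Atp5e (2.81), Ndufa7 (2.77) and Ndufb7 (2.72) led, and Atp5s (-0.84) and Ndufs1 (-0.39) were lower, as was the uncertain Atp5o (-0.86). Atp5e ranged from 92.6 to 320 CPM (median 148) in endothelial-like and from 5.38 to 33.3 CPM in excitatory neuron-like barcodes. Complex II had the smallest median among the nuclear-encoded complexes of this class, 0.56, where the others had 1.39 to 1.71. Mural-like barcodes had 9 of 12 and 52 of 77 members higher (background 15.2%), led by Uqcr11 (1.82), Atp5e (1.78) and Ndufs7 (1.67), with Atp5s (-1.38), Ndufs4 (-0.50) and the uncertain Atp5o (-0.83) lower.

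Other RNA moved with the members in these vascular classes. Ribosomal protein genes summed to 15345 to 58014 CPM in endothelial-like and 6638 to 38855 CPM in mural-like barcodes. Haemoglobin genes summed to 2690 to 33446 and 28.1 to 4791 CPM, and Hbb-bt, Hbb-bs and Hba-a1 were among the leading 10 genes of the endothelial-like class. Barcodes were split by haemoglobin UMIs after seeing the data. In the 1344 endothelial-like barcodes without a haemoglobin UMI, nuclear-encoded members summed to 3993 to 11586 CPM (median 6599.7) and mitochondrial-encoded members to 4975 to 11468 CPM. In the 574 with a haemoglobin UMI these sums were 6636 to 15102 and 6430 to 13377 CPM. The split also followed depth: median UMIs per library were 839 to 1265 without and 1019 to 2061 with a haemoglobin UMI. In mural-like barcodes nuclear-encoded members summed to 3691 to 11001 CPM in the 255 without and 598 to 14761 CPM in the 65 with a haemoglobin UMI. The value of 598 CPM came from BCAS+TBI 1, which had 1 such barcode of 1671 UMIs. The next lowest was 5763 CPM in control 2, from 3 barcodes. The part of red blood cell RNA in these levels was not tested.

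The neuronal classes were low by share of UMIs, though their barcodes had the highest median UMIs of the classes. In excitatory neuron-like barcodes 12 of 12 mitochondrial-encoded and 63 of 77 nuclear-encoded members were lower than in the other classes (medians -1.22 and -0.49, background 28.7%) and 3 nuclear-encoded members were higher (background 39.6%), Cox7b2 (1.70), Ndufa10 (0.44) and Atp5o (0.28), the last by the long overlapping ID whose counts are uncertain. mt-Nd6 (-1.47) and mt-Nd4 (-1.40) were among the lowest. Inhibitory neuron-like barcodes had 12 of 12 and 40 of 77 lower (background 28%) and 9 nuclear-encoded members higher (background 38.3%), with Ndufa10 at 0.52, the uncertain Atp5o at 0.64, Atp5e at -1.06 and Ndufb11 at -0.97. The striatal class had 11 of 12 and 42 of 77 lower (background 25%), with Cox6b2 at -3.39 from 2 UMIs, mt-Nd6 at -1.37 and mt-Nd4 at -1.07, while Ndufs4 was higher at 0.37. Oligodendrocyte precursor-like barcodes had 10 of 12 and 50 of 77 lower (background 19.1%), with Cox5a at -1.32, Uqcrc1 at -1.26 and mt-Nd5 at -1.16. Astrocyte-like barcodes had 7 of 12 mitochondrial-encoded members lower (mt-Nd6 -0.51, mt-Co2 -0.49 and mt-Nd1 -0.46) but 12 nuclear-encoded members higher and 4 lower, against backgrounds of 31.8% higher and 17.2% lower, with the uncertain Atp5o at 1.68. The oligodendrocyte-like class had 4 of 12 mitochondrial-encoded members higher (mt-Co1 0.44, mt-Atp6 0.37) and 16 of 77 nuclear-encoded members lower, with Sdhc at -0.52, Ndufa8 at -0.49 and Atp5j at -0.43 (backgrounds 29.3% and 16.5%). Microglia-like barcodes had 19 of 77 nuclear-encoded members lower (background 20.6%), with Atp5k at -1.67, the uncertain Atp5o at -1.38 and Ndufv3 at -0.996. Choroid plexus-like barcodes had 11 of 12 mitochondrial-encoded members lower (mt-Atp6 -1.81) and 13 of 77 nuclear-encoded ones (background 24.8%), with Ndufs6 at -2.45 from 4 UMIs and Atp5g1 (1.29) and Sdhc (0.74) higher.

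Cox7b2 and Cox6b2, rare isoforms of complex IV, varied widely between classes. Cox7b2 was higher in astrocyte-like (2.99), striatal (2.17), oligodendrocyte precursor-like (2.05), inhibitory neuron-like (1.96) and excitatory neuron-like (1.70) barcodes. It ranged from 16.3 to 39.1 CPM in astrocyte-like barcodes, held 3 UMIs in all ependymal-like and 1 in all mural-like barcodes, and was not found among 868255 UMIs of the choroid plexus-like class. With a floor of 3 counts over the class, 3.46 CPM, that is at least 2.82-fold lower than the mean of the other classes, 9.75 CPM. Cox6b2, known from testis, was higher in choroid plexus-like (3.86), astrocyte-like (2.20) and oligodendrocyte-like (1.11) barcodes and lower in excitatory (-2.17) and inhibitory neuron-like ones (-1.96). It ranged from 18.5 to 176 CPM in choroid plexus-like barcodes, on 51 UMIs, and from 0.451 to 1.75 CPM in excitatory neuron-like barcodes.

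No member differed between the surgery groups by the test. With 2 libraries per group, nuclear-encoded members summed to 3361 ± 2011 CPM (SD, n = 2) after both surgeries, 3064 ± 1455 after TBI, 2800 ± 1246 after BCAS and 2881 ± 1162 in the control group. Mitochondrial-encoded members summed to 2881 ± 2480, 1851 ± 1341, 2199 ± 1166 and 2076 ± 529 CPM in the same order. Every group held 1 high and 1 low library. For nuclear-encoded members each group's SD was larger than any gap between group means, and for mitochondrial-encoded members this held for each group except control.

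Tests covered 5 contrasts: TBI surgery, BCAS surgery, their interaction, BCAS+TBI against TBI and BCAS+TBI against control. The last 2 share the BCAS+TBI libraries with each other and with the first 3. edgeR's quasi-likelihood test called 0 of 92 members in whole libraries in each contrast (background 0%), with 0 members at an unadjusted p under 0.05 in each. Within classes it called 0 of 704 pairs in each contrast (background 0%), with 0, 2, 4, 1 and 2 pairs at an unadjusted p under 0.05, and DESeq2 also called 0. In whole libraries the 3 members with the smallest p-values for TBI surgery were mt-Nd3 (log2 fold change 0.61, SE 0.55), Ndufa9 (0.13, SE 0.14) and Ndufv3 (0.20, SE 0.20). For BCAS surgery they were mt-Nd6 (0.51, SE 0.51), mt-Nd4 (0.42, SE 0.48) and mt-Nd1 (0.41, SE 0.47), and for the interaction mt-Co2 (1.05, SE 0.99), Atp5g2 (0.29, SE 0.27) and Ndufa9 (0.29, SE 0.27). For BCAS+TBI against TBI they were Ndufa9 (0.22, SE 0.19), mt-Nd6 (0.83, SE 0.73) and mt-Nd1 (0.71, SE 0.67), and against control Ndufa9 (0.21, SE 0.19), mt-Atp8 (0.68, SE 0.68) and Ndufv3 (0.26, SE 0.29). Without BCAS+TBI 2, the signs of mt-Nd6, mt-Co2 and several other mitochondrial-encoded members turned (mt-Nd6 -0.26 and mt-Co2 -0.11).

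Within classes the smallest unadjusted p-values were 0.0145 for Atp5g2 in inhibitory neuron-like barcodes (BCAS+TBI against control, -0.80, SE 0.26) and 0.0154 for mt-Cytb in choroid plexus-like barcodes (interaction, -2.49, SE 0.90), both edgeR values with adjusted p of 1.00. For TBI surgery the 3 smallest were those of Cox6b1 in ependymal-like (1.09, SE 0.50), Cox5a in striatal (0.67) and Atp5h in oligodendrocyte precursor-like barcodes (0.84). For BCAS surgery they were Atp5g2 in inhibitory neuron-like (-0.44), Ndufs5 in striatal (-0.67) and Ndufs8 in endothelial-like barcodes (0.99). For the interaction, Ndufa12 in striatal (-2.01) and mt-Co2 in oligodendrocyte-like barcodes (1.74) came next. For BCAS+TBI against TBI they were Ndufs1 in endothelial-like (-0.95), mt-Nd1 in oligodendrocyte precursor-like (1.15) and Sdhc in oligodendrocyte-like barcodes (-0.96), and against control mt-Atp8 in endothelial-like (1.28) and mt-Nd3 in oligodendrocyte-like barcodes (2.26) came next. With the library set as a further term, 0 members were called, and 47, 46, 66, 59 and 57 class pairs had an unadjusted p under 0.05 in the 5 contrasts, of which 44, 40, 57, 56 and 54 were fitted higher. These are 6.68%, 6.53%, 9.38%, 8.38% and 8.10% of the member pairs, beside 4.50%, 4.04%, 4.58%, 4.00% and 3.86% of all pairs in the same order, and the difference was not tested. In that model 3 pairs of all genes were called for TBI surgery and 7 for BCAS+TBI against control, none of them a member. Lists of further subunits, assembly factors, biogenesis and the tricarboxylic acid cycle had 0 calls in every contrast. A p that misses the threshold does not show that the groups were alike.

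Barcodes with a larger share of mitochondrial-encoded UMIs also had a larger share of nuclear-encoded members, up to a point. Both shares are divided by the same UMI totals, and median UMIs per barcode fell from bin to bin. Counts of members per barcode were not compared between the bins. Barcodes with under 0.5% of UMIs in mitochondrial-encoded members made up 83.9% of all, with a median of 4956 UMIs and 2491 CPM of nuclear-encoded members. From 0.5 to 1% (9.25% of barcodes, median 2366.5 UMIs) the nuclear-encoded level was 4869 CPM, from 1 to 2% (4.76%, 2140 UMIs) 7934 CPM, from 2 to 5% (1.46%, 1936 UMIs) 5961 CPM, and over 5% (0.627%, 1508 UMIs) 4444 CPM. Within each library the level at 1 to 2% was 2.05 to 2.93 times that under 0.5%. Ribosomal protein genes in the same bins stood at 2725, 10283, 25579, 18040.2 and 14835 CPM, and their part in the nuclear-encoded level was not tested. The bins also hold different cell classes: in excitatory neuron-like barcodes 92.8% lay under 0.5%, in endothelial-like 46.5% and in ependymal-like 10.0%. Within the ependymal-like class the nuclear-encoded level went only from 2399.7 CPM under 0.5% to 3049.9 CPM at 2 to 5%, whereas within the endothelial-like class it went from 4413 CPM under 0.5% to 12557 CPM at 1 to 2%. Apart from the ratios within each library, these levels pool all libraries. The part of library kind in them was not tested.

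**Figure D4:**
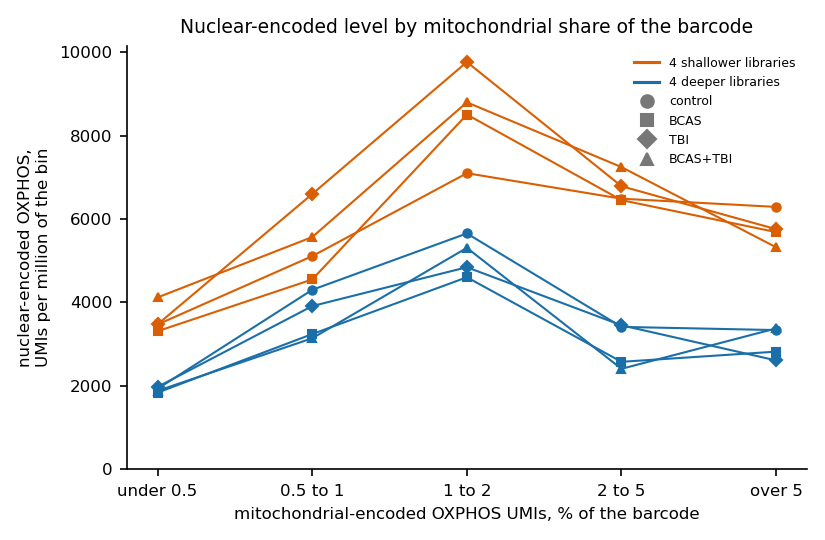
Nuclear-encoded members in CPM of the bin (vertical axis) for barcodes binned by their percent of mitochondrial-encoded UMIs (horizontal axis), 1 line per library. In each library the bin of 1 to 2% lies 2.05 to 2.93 times above the bin under 0.5%.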

How the data were processed

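Nuclei were isolated from frozen tissue and sequenced with a 10x 3' kit, per the labels' protocols. The deposited files hold raw UMI counts per gene and barcode, not normalized by the authors, and come from Cell Ranger (7.0.0), which the file headers name. The submitters' processing notes name GRCm38, mm10 and Seurat. All deposited barcodes with at least 500 UMIs were kept. No doublet caller was run, and barcodes with markers of 2 classes were set apart. The gate needed 3 UMIs of at least 2 markers of a class, and its scoring rule was settled on the third version, after class sizes, marker levels and, for the first version, summed members had been seen. Counts were summed per library or per library and class and tested with edgeR 4.0.16 in R 4.3.3 (TMM; a two-sided quasi-likelihood test; filterByExpr keeping genes from a count of 10; Benjamini-Hochberg threshold 0.05). DESeq2 1.42.0 was the other tool. Fits were tested on simulated data, where the group test without a term for library kind missed all genes changed 2-fold. With that term these genes were recovered, but some unchanged genes were called too. Simulated libraries of the same kind shared their mean levels, apart from the planted changes, and a fixed spread. Recovery there thus does not give the power of the tests on the real libraries. CPM are UMIs of a gene per 1000000 UMIs of the library or class. A log2 fold change between library kinds is deeper minus shallower. The kinds were divided at the largest gap between log totals.

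The members, the lists and the parting of the libraries were chosen with earlier results of these data known, and the gene spans, promoter motifs and sequence windows after the values were seen. For each contrast between groups or library kinds the text names all mitochondrial-encoded members and up to 10 nuclear-encoded members past the threshold by p-value, or else the 3 smallest, for each class the 3 members furthest up and down, and fixed tissue isoforms. Further members, named to complete a count or a complex, were chosen after their values were seen. The YY1 motif was shortened after a longer form had been searched. Gene positions and spans are from GENCODE M21, with 54079 of 54232 features matched by ID. Alternatives were RLE scaling, library sizes without mitochondrial genes, other count minimums, 1000 UMIs per barcode, at most 5% of UMIs in all mitochondrial genes (ribosomal RNA included), no high-UMI barcodes, thinning, a stricter gate, total UMIs as a number, and blocks for replicate number and library kind. Intervals cover counting error only.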

Additional observations from a re-analysis of the deposited data

Results flagged for a closer look

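Within the 4 shallower and the 4 deeper libraries, 52 sets of 4 summed levels were examined for a library far from the other 3. Chance marks about 1 set in 20 at Dixon's 95% limit. The sets share the same libraries and are not independent, so no excess over that rate can be read here. In 5 sets the gap of 1 library to the nearest took more of the range than that limit allows. In 4 of them the library was BCAS+TBI 2, the highest of the shallower libraries: its nuclear-encoded members summed to 4017 CPM in excitatory neuron-like barcodes (nearest library 3132), to 4871 CPM in inhibitory neuron-like barcodes (nearest 4038) and to 5824 CPM in astrocyte-like barcodes (nearest 4865), and its mitochondrial-encoded members to 5223 CPM in inhibitory neuron-like barcodes (nearest 3091). In the other, mitochondrial-encoded members in oligodendrocyte-like barcodes summed to 7548 CPM in control 2, the highest of the deeper libraries (nearest 2502). The median of these control 2 barcodes was 0.185% of UMIs, and their 95th percentile was 7.33%. No cause was tested.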

How the results depend on the processing

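Of 285 recomputed values of the comparisons, 282 kept their direction and stayed on their side of the threshold, within 1.5 times the count or, for a value with no test, within 1 SD between libraries. With barcodes of at most 5% mitochondrial UMIs the pairs called between classes went from 516 to 311, with fewer classes tested. There the ratio of nuclear-encoded levels between barcodes of 1 to 2% and under 0.5% mitochondrial-encoded UMIs, pooled over libraries, went from 3.18 to 3.77. Without high-UMI barcodes that ratio was 2.72. Leaving out 1 library gave 77 to 82 called members between library kinds (81 with all), 437 to 533 pairs within classes (541), 460 to 500 pairs between classes and 0 in all group contrasts. Among single genes and classes 66 values lost significance and 14 turned sign. Leaving out 1 library gave, for BCAS surgery, -0.26 to 0.86 for mt-Nd6, -0.18 to 0.81 for mt-Nd4 and -0.17 to 0.79 for mt-Nd1, for the interaction -0.11 to 2.04 for mt-Co2, for BCAS+TBI against TBI -0.71 to 1.53 for mt-Nd6 and -0.43 to 1.47 for mt-Nd1 (-0.44 to 1.88 in oligodendrocyte precursor-like barcodes), and for BCAS+TBI against control -0.45 to 1.33 for mt-Atp8 and -0.10 to 0.56 for Ndufv3, each lowest without BCAS+TBI 2. For TBI surgery mt-Nd3 ranged from -0.035 (without TBI 1) to 0.98. None of these had passed the threshold. With at most 5% mitochondrial UMIs, mt-Nd6 in astrocyte-like barcodes turned to 0.033, and the ratios of shallower to deeper libraries for mitochondrial-encoded members to 0.964 in endothelial-like and 0.955 in fibroblast-like barcodes. With the stricter gate the nuclear-encoded ratio in fibroblast-like barcodes was 0.898. The causes were not tested. The replicate block called 0 members in every group contrast, as without it. Replicate numbers did not pair the libraries: differences between replicates 1 and 2 correlated at 0.625 to 0.785 among control, BCAS and TBI but at -0.771 to -0.844 with BCAS+TBI. The block for library kind gives this crossed pairing, also with 0 members called. Depth limits the rare members and small classes: 41 nuclear-encoded members were tested in oligodendrocyte precursor-like, 23 in microglia-like and 18 in mural-like barcodes.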

Other observations

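Inhibitory neuron-like barcodes were divided by at least 2 UMIs of 1 of Pvalb, Sst, Vip or Lamp5 and none of the others, a rule settled after the data were seen. Pvalb-positive barcodes, whose type is known for fast firing, were the subset with the highest nuclear-encoded sum in 8 of 8 libraries: 6565 and 2738 CPM in control 1 and 2, 4716 and 2651 in BCAS, 5311 and 2984 in TBI, and 2761 and 6316 in BCAS+TBI. Sst-positive barcodes lay at 1973 to 4790.5 CPM, Vip-positive at 1856 to 4254 and Lamp5-positive at 1626 to 4317. There were 134 barcodes that were Pvalb-positive, 7 to 25 per library, beside 797 Sst-positive, 413 Vip-positive and 229 Lamp5-positive. The mitochondrial-encoded sum had another order, with Lamp5-positive barcodes highest in 6 of 8 libraries and Pvalb-positive barcodes lowest in 5. No test was made.

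The mix of mitochondrial-encoded members differed in ependymal-like barcodes. mt-Nd1 took 8.64% of their mitochondrial-encoded UMIs, against 14.5% to 19.5% in the other classes, and mt-Cytb took 33.2% and mt-Nd4 19.4%, against 25.2% and 14.7% over all barcodes. These shares pool the 8 libraries and were not tested.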
